A study of Mus musculus with 18 samples.

Results

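The genes described here are 41 interferon-stimulated genes, a set of host genes whose transcripts rise when a cell senses an interferon. They were taken by gene symbol from the deposited table of mouse colon RNA sequencing, which holds 35405 genes, and all 41 were among the 20855 genes with enough counts to be tested. Colon tissue was sampled in 18 libraries that form 3 groups of 6, named IBC (isobavachalcone, a plant chalcone), TNBS (trinitrobenzene sulfonic acid, a hapten that provokes colitis) and vector (the controls). No dose, time, strain, sex or age is given in the labels, and it is not stated there if the IBC mice were given TNBS too. Nothing states that the libraries are separate animals, so p-values measure the spread between libraries, which may be technical.

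The sequencing depth of a library was between 55.7 and 78.9 (units of 1e6 counts). Marker genes of colon epithelium summed to between 9006 and 35294 CPM (counts per 1e6 counts of the library's scaled total), and none of the 8 epithelial markers was at 0 in any library. Much of the spread of this sum came from Muc2 (980 to 18441 CPM) and Car1 (254 to 14834 CPM), while Epcam spanned 1021 to 2004 CPM. Libraries did not separate by group alone. Hoxb13, a homeobox gene of the hind end of the body axis, was at most 1.44 CPM in IBC 2, IBC 5, TNBS 2, TNBS 3, vector 3 and vector 4, and between 123 and 598 CPM in the other 12 libraries. Every group holds 2 Hoxb13-low and 4 Hoxb13-high libraries; these sets were read from the data and are not groups of the study. The share of counts from mitochondrial genes was 17.98% for vector 3, and 4.48% to 9.20% elsewhere. A single library, TNBS 3, was the highest of the TNBS group for 38 of the 41 members, and results that rest on it are given with and without it. In whole tissue, fewer cells of a type and less RNA per cell cannot be told apart.

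Interferons act on a cell through surface receptors and the JAK-STAT pathway. Type I and type III interferons assemble a complex that holds STAT2 and IRF9 on a promoter motif called the interferon-stimulated response element (ISRE), while interferon gamma, made mainly by T and NK cells, acts through gamma-activated sites (GAS) and, through IRF1, also through ISRE-like motifs. The induced proteins degrade or trap viral RNA, tag proteins with ISG15, attack the vacuoles of intracellular pathogens (the guanylate-binding and immunity-related GTPases) or recruit T cells (CXCL9 and CXCL10). In the gut a steady low level of these transcripts is present in the epithelium without infection.

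Response elements of these kinds can be read in the promoters, and the stretches below are shown because members of different roles carry the same core letters. RefSeq promoter windows (300 bases each, GRCm38.p6) were found for 31 of the 41 members; Dhx58, Zbp1, Usp18, Oas2, Mx1, Mx2, Iigp1, Ifi27l2a, Rtp4 and Parp14 were not matched. An ISRE core, searched as GAAANNGAAA or its reverse complement TTTCNNTTTC with overlapping matches allowed, was present for 20 of the 31 genes (64.5%). Some genes have several windows, and by window it was in 21 of the members' 38 (55.3%), against 1131 of all 32841 windows (3.44%). It was found for 7 of 8 GTPase and chemokine genes and for 13 of 23 other members. A GAS core, TTCNNNGAA, which reads the same on both strands, was in 9 of the members' 38 windows (23.7%), against 2725 of all windows (8.3%). The capitals mark the motif core, in the direction of the gene, 5′ to 3′.
Isg15 (ISRE, chr4:156200855-156200916, minus strand): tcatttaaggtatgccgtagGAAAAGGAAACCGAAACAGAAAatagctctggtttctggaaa
Ifit1 (ISRE, chr19:34640765-34640833, plus strand): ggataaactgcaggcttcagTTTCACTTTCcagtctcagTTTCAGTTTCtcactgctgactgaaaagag
Ifit3 (ISRE, chr19:34583353-34583436, plus strand): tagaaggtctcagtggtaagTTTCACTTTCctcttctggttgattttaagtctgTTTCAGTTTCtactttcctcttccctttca
Oas1a (ISRE, chr5:120907526-120907565, minus strand): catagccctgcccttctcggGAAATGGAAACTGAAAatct
Gbp2 (ISRE, chr3:142620584-142620633, plus strand): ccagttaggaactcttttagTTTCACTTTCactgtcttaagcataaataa
Igtp (ISRE, chr11:58199502-58199551, plus strand): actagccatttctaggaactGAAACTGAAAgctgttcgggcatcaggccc
Cxcl10 (ISRE, chr5:92349073-92349122, minus strand): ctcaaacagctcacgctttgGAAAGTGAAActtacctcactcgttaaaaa
Irf1 (GAS, chr11:53769904-53769952, plus strand): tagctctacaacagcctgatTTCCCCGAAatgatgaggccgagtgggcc
Isg15 and Oas1a carry overlapping cores, and Ifit1 and Ifit3 carry separate pairs. The Ifit3b stretch on chromosome 19 is identical to that of Ifit3 at 84 of 84 bases. Irf1 had a GAS core and no ISRE core in that window. A match describes the letters only and says nothing about which factor was bound in these samples.

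Several members sit in clusters of related genes. In the deposited table, whose genome build is not given in the sources used here, Ifit2, Ifit3, Ifit3b and Ifit1 lie in that order on chromosome 19 between positions 34528094 and 34627409. Gbp5, Gbp7, Gbp3 and Gbp2 lie on chromosome 3 between 142199739 and 142343769, and Cxcl9 and Cxcl10 are neighbours on chromosome 5 between 92469206 and 92496741. Oas2, Oas3, Oas1g and Oas1a lie on chromosome 5 between 120868398 and 121045584. How the counting split reads between Ifit3 and Ifit3b, or between Oas1a and Oas1g, is not known, so the values of these 4 genes are uncertain as single genes.

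Levels per transcript length differed widely between members. On the FPKM scale (fragments scaled by transcript length and library total) averaged over the 18 libraries, Ifi27l2a, a small interferon-inducible gene, had the highest level at 43.1 FPKM, followed by Oas1a at 41.8, Irf1 at 33.7, Bst2 at 30.7 and Irf7 at 26.0 FPKM. The lowest were Gbp5 at 0.731, Mx2 at 0.662 and Ifi44 at 0.538 FPKM. Single libraries overlapped across much of this order, since Ifi27l2a itself spanned 14.5 to 134 FPKM and Oas1a spanned 24.7 to 78.4 FPKM. The spread of a member over the 18 libraries, as its highest over its lowest CPM, was smallest for Ifih1 (2.51-fold) and largest for Cxcl9 (95.0-fold), Iigp1 (43.5-fold) and Oas3 (40.8-fold).

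**Figure D1:**
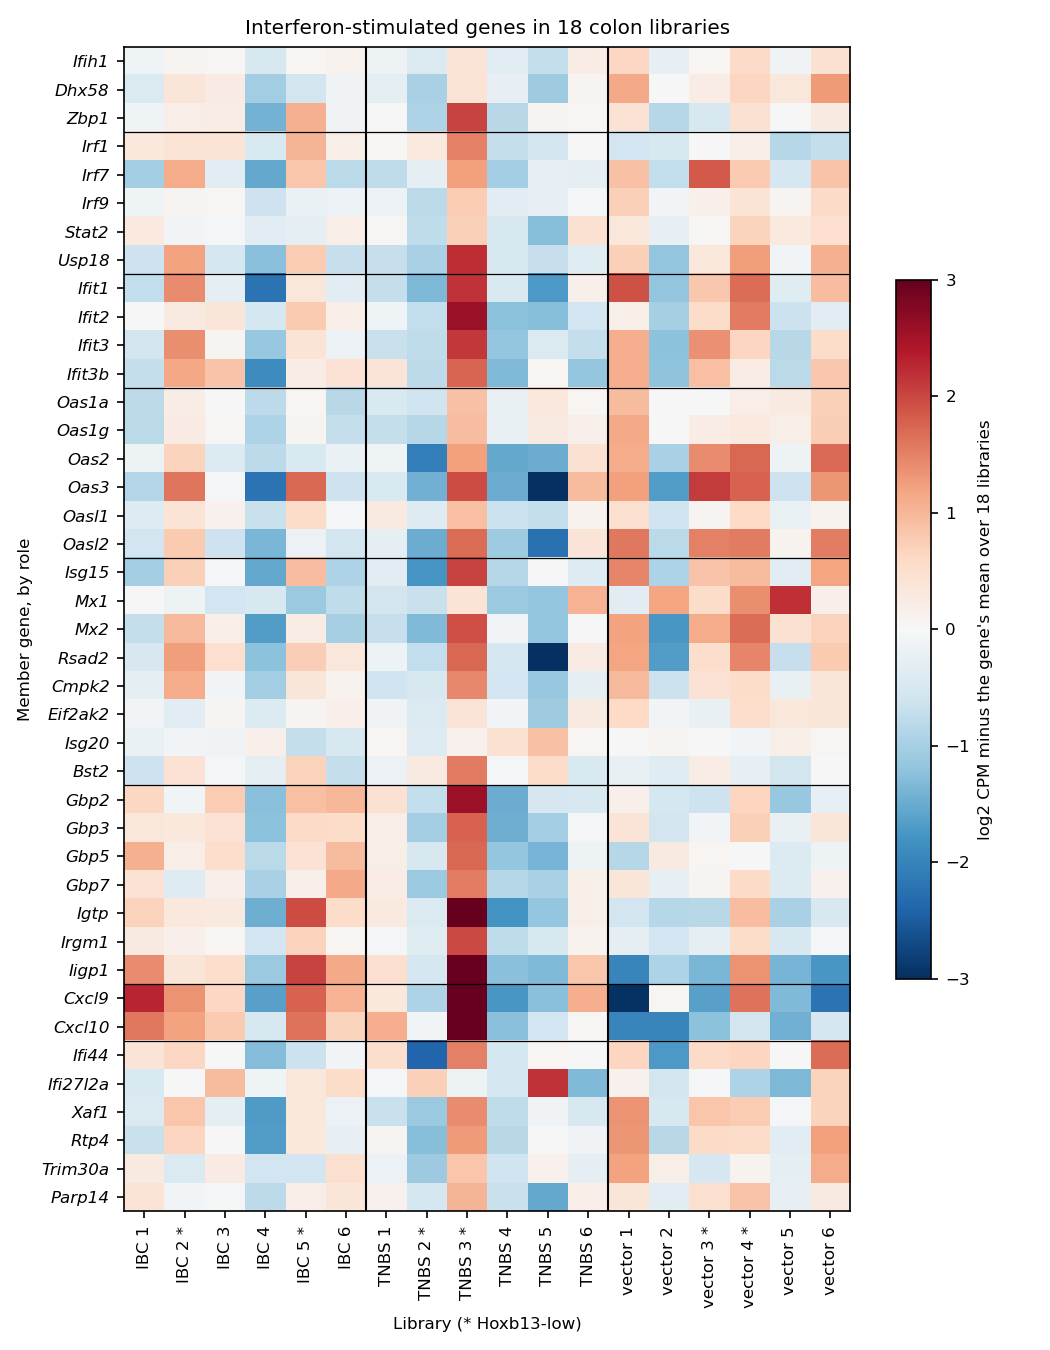
Level of each of the 41 members (rows, by role) in each library (columns; an asterisk marks a Hoxb13-low library), as log2 CPM minus the gene's mean over 18 libraries, with colours ending at 3 on either side. TNBS 3 is above the gene's mean for 40 of 41 members, while IBC 4 and TNBS 4 are above it for 1 member each.

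Whole libraries were high or low for nearly the full set. TNBS 3 lay above the gene's own mean for 40 of 41 members, vector 4 for 37, and IBC 2, IBC 5 and vector 6 for 32 each. IBC 4 and TNBS 4 were above the mean for 1 member each, TNBS 2 for 3 and vector 2 for 6. IBC 4 was the lowest IBC library for 35 members and vector 2 the lowest vector library for 27. High and low libraries occurred in all 3 groups.

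Some libraries were split by role. On the scale of log2 CPM minus each gene's mean over 18 libraries, IBC 1 averaged 1.94 over the 2 chemokines and 0.70 over the 7 GTPases, but -0.50 over the 4 Ifit genes and -0.60 over the 6 Oas genes. Vector 1 had the opposite pattern, with -2.47 for the chemokines and -0.39 for the GTPases, against 1.06 for the Ifit and 1.08 for the Oas genes. TNBS 3 was high for every role, from 0.95 for the 3 nucleic acid sensors to 3.31 for the chemokines.

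The transcription factors and feedback genes were read first, because they carry the signal to the rest. Irf7, the factor that amplifies type I interferon responses, ranged in IBC libraries from 31.2 to 196 CPM (median 61.3), in TNBS libraries from 44.1 to 213 CPM (median 74.4) and in vector libraries from 53.6 to 321 CPM (median 158). The 3 groups overlapped almost completely, and in each of them the highest library was Hoxb13-low. Usp18, the ISG15 protease that also damps the type I receptor, had 1.97 to 10.9 CPM in IBC (median 3.16), 2.36 to 21.9 CPM in TNBS (median 3.14) and 2.06 to 11.3 CPM in vector libraries (median 6.88). TNBS 3 alone held the value of 21.9 CPM, and the other 5 TNBS libraries were at or under 3.63 CPM. Stat2, the STAT subunit special to type I and III signalling, had 36.3 to 56.2 CPM in IBC (median 43.7), 19.1 to 75.8 CPM in TNBS (median 39.9) and 39.0 to 73.2 CPM in vector libraries (median 57.5). Irf1, the factor most responsive to interferon gamma, ran the other way: 98.5 to 271 CPM in IBC (median 172), 81.6 to 382 CPM in TNBS (median 136) and 74.9 to 153 CPM in vector libraries (median 93.5). All 6 IBC libraries lay above the vector median of Irf1, although the groups overlapped.

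Among the antiviral effectors, Isg15, the ubiquitin-like modifier, had 3.56 to 19.9 CPM in IBC (median 7.71), 3.02 to 42.8 CPM in TNBS (median 8.11) and 5.50 to 28.7 CPM in vector libraries (median 19.5). Ifit1, which binds RNA lacking the host cap methylation, had 2.10 to 26.3 CPM in IBC (median 7.94), 2.95 to 44.6 CPM in TNBS (median 6.60) and 4.34 to 37.1 CPM in vector libraries (median 18.03). Both genes had their lower medians in IBC and TNBS, and both had TNBS 3 as the highest of all 18 libraries. Oas2, a synthetase of the second messenger that activates RNase L, had 3.36 to 9.17 CPM in IBC (median 4.69), 1.36 to 13.5 CPM in TNBS (median 3.67) and 2.92 to 19.1 CPM in vector libraries (median 14.1). Every IBC and every TNBS library was below the vector median of Oas2, but vector 2 and vector 5 were low as well. Mx1, a dynamin-like GTPase against influenza-type viruses, had 2.91 to 6.35 CPM in IBC (median 4.37), 2.80 to 13.1 CPM in TNBS (median 4.12) and 4.98 to 28.9 CPM in vector libraries (median 11.8). The highest Mx1 library was vector 5, where 10 of the 41 members were above their mean, while its paralogue Mx2 was highest in TNBS 3. Many inbred mouse strains carry a defective Mx1, and the strain is not in the labels.

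The guanylate-binding and immunity-related GTPases and the chemokines, which in mouse cells respond strongly to interferon gamma, had another order of medians. Gbp2, a guanylate-binding protein that coats pathogen vacuoles, had 11.9 to 57.4 CPM in IBC (median 46.4), 10.2 to 170 CPM in TNBS (median 20.4) and 13.0 to 45.0 CPM in vector libraries (median 22.1). Igtp, an immunity-related GTPase (Irgm3), had 9.10 to 97.8 CPM in IBC (median 34.1), 7.29 to 249 CPM in TNBS (median 23.7) and 12.8 to 47.8 CPM in vector libraries (median 15.6). The IBC median was the highest of the 3 for both genes, and the range was widest in TNBS, where TNBS 3 lay far above the rest. Cxcl9, a T cell attractant that binds the chemokine receptor CXCR3, had 1.22 to 18.8 CPM in IBC (median 8.90), 1.12 to 44.6 CPM in TNBS (median 3.39) and 0.469 to 11.9 CPM in vector libraries (median 1.38). Cxcl10, another ligand of CXCR3, had 1.65 to 7.26 CPM in IBC (median 4.68), 0.958 to 20.01 CPM in TNBS (median 2.27) and 0.563 to 1.62 CPM in vector libraries (median 0.895). For Cxcl10 no IBC library reached down into the vector range, while TNBS 4 and TNBS 5 lay within it.

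**Figure D2:**
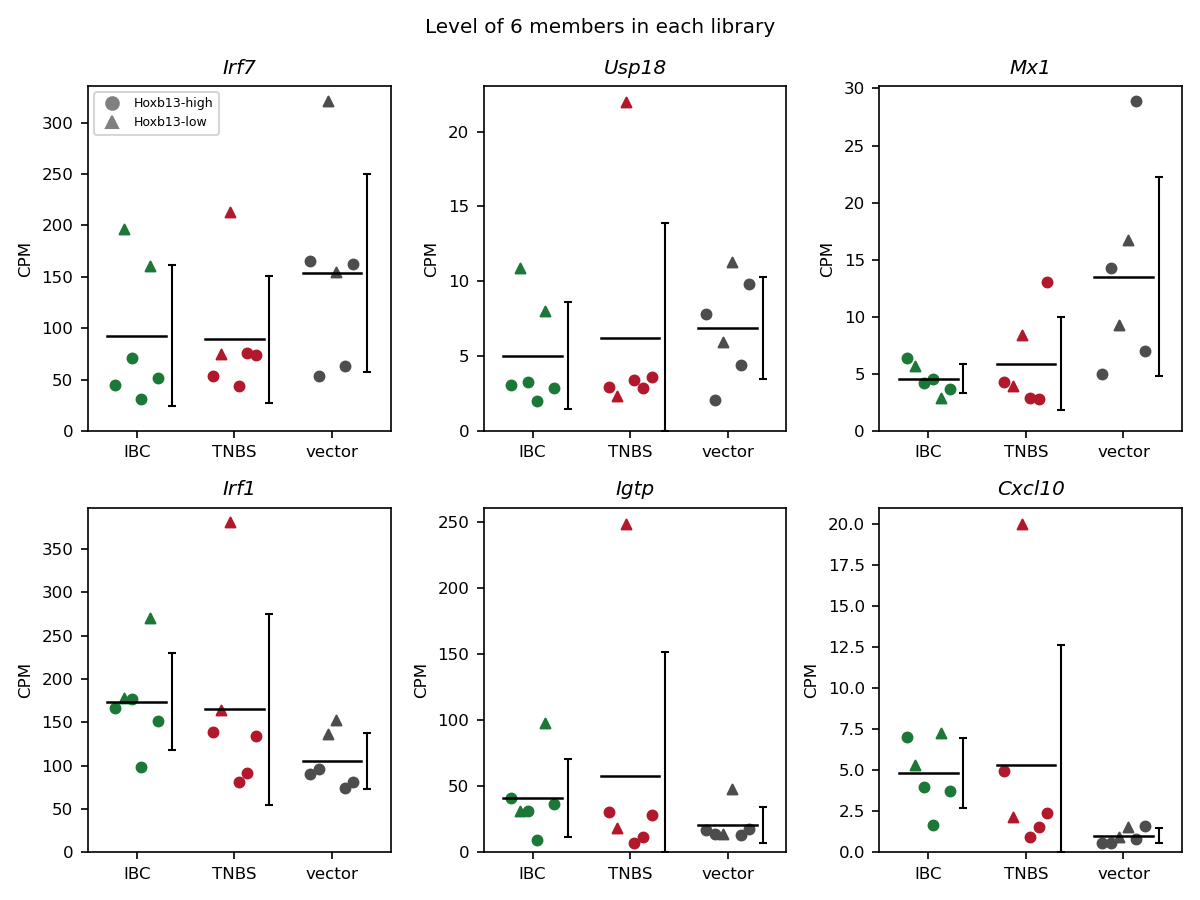
CPM of 6 members in each library of the IBC, TNBS and vector groups, with the group mean (line) and SD (bar, n = 6, ending at 0 where it would go below). Triangles are Hoxb13-low libraries; Cxcl10 lies between 1.65 and 7.26 CPM in IBC, above the highest vector library at 1.62 CPM.

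TNBS was set against vector to read the colitis model. Members of different roles had differences of opposite sign, and none passed the test. All 7 guanylate-binding and immunity-related GTPases and both chemokines had log2 differences above 0 (median 0.86). The GTPases counted throughout leave out Mx1 (-1.20) and its paralogue Mx2 (-0.60), which stand with the other antiviral effectors. The count above 0 was 6 or 7 of 9 with limma on FPKM, and 6 with the replicate number as a block or in the 12 Hoxb13-high libraries alone. It was 8 with a term for the Hoxb13 set, 7 or 8 without vector 2, vector 3 or vector 5, and 3 without TNBS 3. Of the other 32 members, 26 were below 0 (median -0.38). By role, the median log2 difference was -0.38 for the sensors, -0.36 for the factors and feedback genes, -0.20 for the Ifit genes (3 of 4 below 0), -0.65 for the Oas genes (6 of 6) and -0.41 for the other antiviral effectors (6 of 8). The Ifit count was 4 of 4 with limma on FPKM, the block, the 12 Hoxb13-high libraries alone or without TNBS 3. Without TNBS 4, TNBS 6, vector 1 or vector 3 it was 2 of 4. Over all 41 the median log2 difference was -0.31, with 15 above and 26 below 0, against -0.01 over all genes tested. By edgeR's quasi-likelihood test 0 of 41 members had an adjusted p under 0.05, where 4 of all genes did (0.0192%). At an unadjusted p under 0.05, 2 members were higher and 3 lower, against 10.4% of all genes higher and 7.32% lower. No member had TNBS and vector ranges that did not overlap, which 245 genes did (1.17%).

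Cxcl10 had the largest difference, 5.34 ± 7.32 CPM in TNBS and 1.02 ± 0.474 CPM in vector libraries (SD, n = 6 each), a log2 difference of 2.39 ± 0.63 (SE) with an edgeR adjusted p of 0.116. DESeq2 called it, at an adjusted p of 0.00429, with 554 of 35249 genes called. All 6 TNBS libraries were above the vector median, and the edgeR log2 difference was 1.24 without TNBS 3. As a difference of mean log2 CPM it was 1.31 within the 12 Hoxb13-high libraries and 2.40 within the 6 Hoxb13-low ones. Iigp1, an immunity-related GTPase of the interferon gamma response, had 36.8 ± 58.5 CPM in TNBS and 10.3 ± 12.5 CPM in vector libraries (log2 difference 1.84 ± 0.81, edgeR adjusted p of 0.255), and 0.35 without TNBS 3. Igtp showed the same dependence on that library, with a log2 difference of 1.48 ± 0.73 in all libraries and -0.09 without TNBS 3, as did Gbp2 (0.86 ± 0.57, and -0.25 without it) and Cxcl9 (1.64 ± 0.92, and 0.09 without it). Leaving out vector 4 moved these genes the opposite way, to 2.82 for Iigp1, 1.92 for Igtp, 1.10 for Gbp2 and 2.69 for Cxcl9. Without TNBS 3 Cxcl10, Iigp1 and Cxcl9 were the only 3 of the 9 GTPases and chemokines still above 0.

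The members with the smallest p on the lower side came from different roles. Dhx58 (LGP2), a regulator of RIG-I and MDA5 sensing, had 9.79 ± 3.75 CPM in TNBS and 18.6 ± 6.78 CPM in vector libraries (SD, n = 6 each), a log2 difference of -0.93 ± 0.30 with an edgeR adjusted p of 0.172. All 6 TNBS libraries were below the vector median. Mx1 averaged 5.90 ± 4.07 CPM in TNBS and 13.5 ± 8.71 CPM in vector libraries, a log2 difference of -1.20 ± 0.43 with an edgeR adjusted p of 0.198. Oas2 averaged 5.37 ± 4.74 CPM in TNBS and 12.4 ± 6.93 CPM in vector libraries, a log2 difference of -1.21 ± 0.53 with an edgeR adjusted p of 0.255. These 3 differences moved away from 0 without TNBS 3, to -1.10 for Dhx58, -1.32 for Mx1 and -1.73 for Oas2. Within the Hoxb13-high and Hoxb13-low libraries the differences of mean log2 CPM were -1.05 and -0.71 for Dhx58, -1.24 and -1.11 for Mx1, and -1.09 and -1.99 for Oas2. These are not edgeR estimates, and each group has only 2 Hoxb13-low libraries.

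Leaving out TNBS 3 shifted the whole set. The median log2 difference of the 41 members was then -0.68, with 7 above and 34 below 0, and 0 members were called by edgeR. Irf7 had -0.78 ± 0.51 with the library and -1.25 without it, Isg15 -0.43 ± 0.58 and -1.31, and Ifit1 -0.63 ± 0.67 and -1.65. Other libraries moved them the opposite way, to -0.42 for Irf7 without vector 3, -0.23 for Isg15 without TNBS 2 and -0.34 for Ifit1 without vector 1. Usp18 had -0.15 ± 0.58 with TNBS 3 and -1.18 without it. Isg20, an exonuclease, and Ifi27l2a hardly depended on TNBS 3, which was at 1.05 and 0.929 times the median of the other TNBS libraries for them, against 22.3 times for Cxcl9, 15.6 for Iigp1 and 13.3 for Igtp. The 6 Oas genes were all below 0 with and without TNBS 3, and 5 of 6 were without TNBS 4, TNBS 5 or vector 4.

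**Figure D3:**
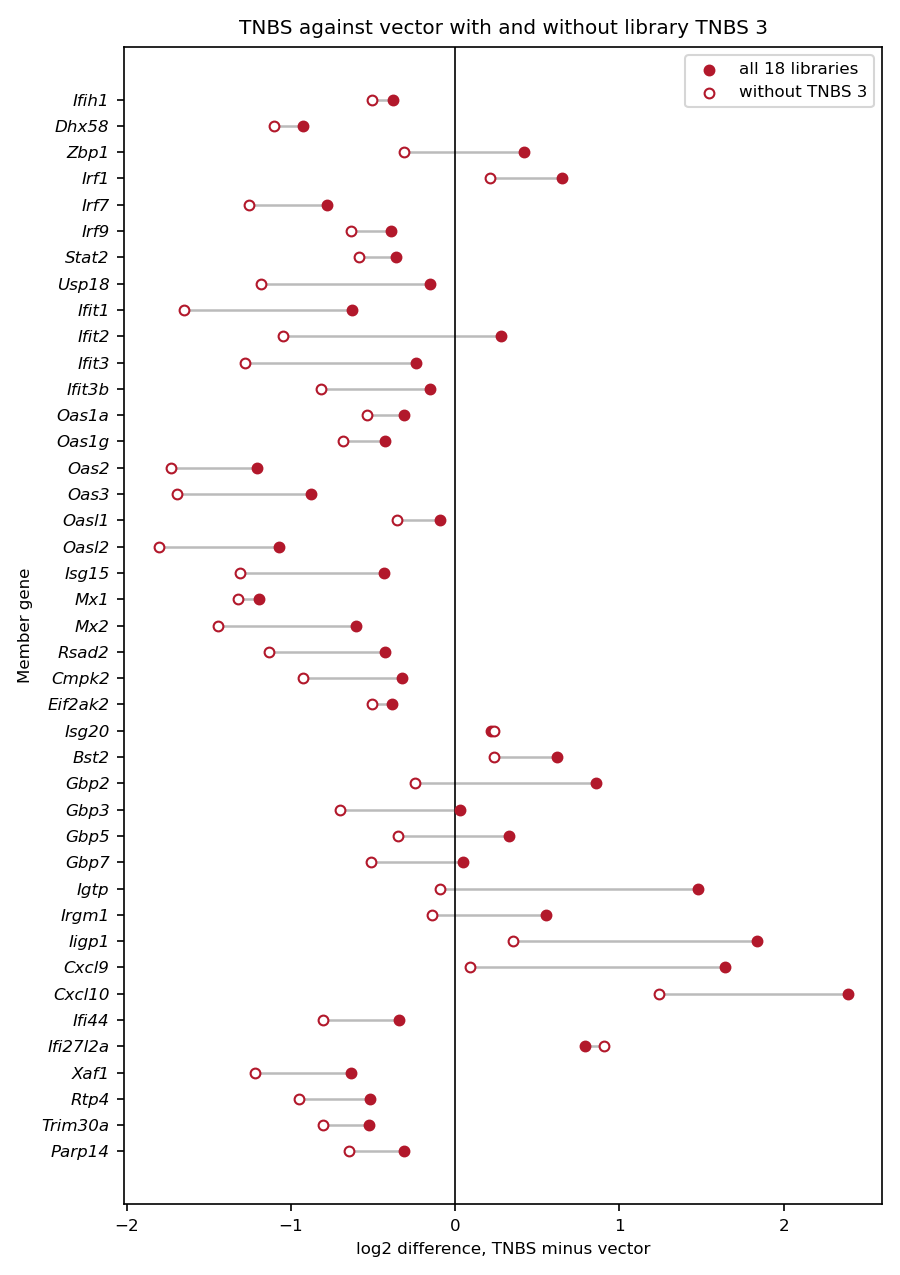
Log2 difference of TNBS minus vector for each member (rows) in the fit of all 18 libraries (filled) and in the fit without TNBS 3 (open). Removing the library moves Igtp to -0.09 and Gbp2 to -0.25 and leaves Cxcl10 at 1.24; edgeR calls no member in either fit.

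Marker genes of immune cells were read beside these values. The 6 neutrophil markers summed to 6.50 to 249.9 CPM in TNBS and 1.75 to 4.04 CPM in vector libraries, and the 8 monocyte and macrophage markers to 165.9 to 536.8 CPM in TNBS and 85.6 to 220.4 CPM in vector libraries. No gene of either list was called by edgeR, although 6 of 6 and 5 of 8 were higher at an unadjusted p under 0.05. The 12 T and NK cell markers summed to 13.9 to 23.7 CPM in TNBS and 8.87 to 31.3 CPM in vector libraries. All 6 markers of plasmacytoid dendritic cells, which are known for making type I interferon, had log2 differences below 0. By edgeR 0 of the 6 were called, and 2 were lower at an unadjusted p under 0.05. Siglech was at most 1.93 CPM and Cox6a2 at most 0.454 CPM in any library. The sum of the 6 is not given, since nearly all of it was Klk1 (942 ± 283 CPM in TNBS and 1508 ± 238 CPM in vector libraries, SD, n = 6 each). The neutrophil markers Mmp8, Cxcr2 and S100a8 were at 0 in some vector libraries (Cxcr2 also in IBC 2), and single T and NK cell markers (Gzmb, Prf1, Klrb1c, Tbx21) were at 0 in 1 or 2 libraries, whereas Cd3e and Csf1r were at 0 in none. The plasmacytoid dendritic cell marker Cox6a2 was at 0 in IBC 1, IBC 5, TNBS 2, TNBS 4, TNBS 6 and vector 3. TNBS 3 was not the TNBS library with the highest sum for T and NK cell, monocyte and macrophage, neutrophil or B cell markers. It did have the highest TNBS sum for smooth muscle markers, 3772 CPM, followed by TNBS 4 at 2615 CPM. The part of these cells in the members' differences was not tested.

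The comparison of IBC with vector gave a similar split, again without a member past the test. It shares the vector libraries with the comparison above, so the values stand side by side and are not independent. The 9 GTPases and chemokines were all above 0 (median log2 difference 0.67), or 8 of 9 without IBC 6, and 28 of the other 32 were below 0 (median -0.47). The 4 Ifit genes were all below 0 here (median -0.20), a count that was 2 of 4 without IBC 4, and 3 of 4 with limma on FPKM, the replicate number as a block, a term for the Hoxb13 set or the 12 Hoxb13-high libraries alone, and without IBC 1, vector 1, vector 3, vector 4 or vector 6. Below 0 were also 7 of 8 other antiviral effectors (median -0.30) and 4 of 5 factors and feedback genes (median -0.46). The median over all 41 was -0.31, with 13 above and 28 below 0, against -0.01 over all genes tested. By edgeR 0 of 41 members and 0 of all genes (0%) had an adjusted p under 0.05, while DESeq2 called 2 members and 197 of 35249 genes. At an unadjusted p under 0.05, 2 members were higher and 7 lower, against 4.9% of all genes higher and 3.63% lower.

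Mx1 averaged 4.56 ± 1.26 CPM in IBC and 13.5 ± 8.71 CPM in vector libraries (SD, n = 6 each). Its log2 difference was -1.57 ± 0.43 (SE), with an edgeR adjusted p of 0.283 and a DESeq2 adjusted p of 0.0316. All 6 IBC libraries were below the vector median. The difference of mean log2 CPM was -1.25 within the Hoxb13-high and -1.61 within the Hoxb13-low libraries. Cxcl10 averaged 4.84 ± 2.15 CPM in IBC and 1.02 ± 0.474 CPM in vector libraries, a log2 difference of 2.24 ± 0.63 with an edgeR adjusted p of 0.284 and a DESeq2 adjusted p of 0.0191. It was the 1 member whose IBC and vector ranges did not overlap, which was so for 225 of all genes (1.08%). Its difference of mean log2 CPM was 2.12 within the Hoxb13-high and 2.31 within the Hoxb13-low libraries. Dhx58 averaged 10.3 ± 3.61 CPM in IBC and 18.6 ± 6.78 CPM in vector libraries, a log2 difference of -0.85 ± 0.30 with an edgeR adjusted p of 0.395. Irf1 averaged 174 ± 55.9 CPM in IBC and 105.5 ± 31.7 CPM in vector libraries, a log2 difference of 0.72 ± 0.33 with an edgeR adjusted p of 0.560.

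In the Oas family, some of whose members make the activators of RNase L, 6 of 6 genes were below 0. The count was 5 of 6 with limma on FPKM and without IBC 1, IBC 4, vector 1 or vector 4. By edgeR 4 of the 6 had an unadjusted p under 0.05, while the Oas-like gene Oasl1 hardly differed (log2 difference of -0.07 ± 0.28). Oasl2, an Oas-like protein with ubiquitin-like domains, had 22.2 ± 12.5 CPM in IBC and 59.2 ± 29.3 CPM in vector libraries, a log2 difference of -1.42 ± 0.57 (edgeR adjusted p of 0.492). Oas1a had 67.4 ± 22.7 CPM in IBC and 108.7 ± 31.0 CPM in vector libraries, a log2 difference of -0.69 ± 0.27 (edgeR adjusted p of 0.469). In Oas1a and Oas1g a difference of mean log2 CPM was seen within the Hoxb13-high libraries (-1.09 and -1.12). It was hardly seen within the Hoxb13-low ones (0.03 and -0.09). Irf9, the DNA-binding subunit of the type I complex, had a log2 difference of -0.48 ± 0.21, with 40.9 ± 6.65 CPM in IBC and 57.1 ± 12.4 CPM in vector libraries (edgeR adjusted p of 0.548). In all, 10 members had every IBC library below the vector median and 3 had every IBC library above it. The share of all genes that do so was not computed, and the members move together across libraries, so these counts are a description only.

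Neutrophil markers summed to 3.83 to 71.9 CPM in IBC and 1.75 to 4.04 CPM in vector libraries, and monocyte and macrophage markers to 140.8 to 431.4 CPM in IBC and 85.6 to 220.4 CPM in vector libraries. T and NK cell markers summed to 14.3 to 31.8 CPM in IBC and 8.87 to 31.3 CPM in vector libraries. Of these 12 markers, 9 had log2 differences above 0 and 3 below. By edgeR 0 were called, and 2 were higher and 0 lower at an unadjusted p under 0.05. Gzmb, a granzyme of killer cells, averaged 3.43 ± 1.12 CPM in IBC and 0.565 ± 0.840 CPM in vector libraries (edgeR adjusted p of 0.314). The part of all these cells in the members' differences was not tested.

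IBC was set against TNBS to read isobavachalcone beside the colitis group; this comparison shares its TNBS libraries with the first. No member passed the test, and the sign of the members' median turned with TNBS 3 and with the processing. By edgeR 0 of 41 members and 0 of all genes (0%) had an adjusted p under 0.05, and DESeq2 called 0 members. The lowest adjusted p of a member was 0.925. At an unadjusted p under 0.05, 0 members were higher and 1 lower, against 1.71% of all genes higher and 2.22% lower. That member was Isg20, with 15.8 ± 3.34 CPM in IBC and 21.8 ± 6.65 CPM in TNBS libraries (SD, n = 6 each), a log2 difference of -0.46 ± 0.18, and -0.30 without TNBS 5. Isg20 was below the TNBS median in 5 of 6 IBC libraries, with 11.03 to 20.4 CPM in IBC and 14.0 to 33.3 CPM in TNBS libraries, ranges that overlapped. Oas1a had 46.0 to 95.8 CPM in IBC (median 64.7) and 54.0 to 151.5 CPM in TNBS libraries (median 78.4), a log2 difference of -0.38 ± 0.27, and -0.15 without TNBS 3.

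Over the 41 members the median log2 difference of IBC minus TNBS was -0.13, with 16 above and 25 below 0, against 0.0023 over all genes. The members' median was 0.19 and 0.14 with limma on FPKM, 0.14 with the replicate number as a block and 0.03 without IBC 4. The median over all genes moved too, to 0.114 and 0.0496 with limma on FPKM and 0.0252 with the block. It was -0.0002 without IBC 4. Without TNBS 3 the members' median was 0.49, with 35 above and 6 below 0. All 9 GTPases and chemokines were then above 0 (median 1.00). Gbp5, a guanylate-binding protein that promotes inflammasome assembly, then had 1.00 ± 0.34 (edgeR adjusted p of 0.995), and Ifit2 had 0.96 ± 0.39; with all libraries they had 0.32 ± 0.44 and -0.36 ± 0.61. Bst2 (tetherin), which holds budding virions at the membrane, had 28.8 ± 11.5 CPM in IBC and 39.4 ± 23.7 CPM in TNBS libraries, a log2 difference of -0.45 ± 0.31, and -0.07 without TNBS 3. Within the 12 Hoxb13-high libraries, which do not include TNBS 3, the median was 0.09, with 24 above and 17 below 0, and all 9 GTPases and chemokines were above 0 (median 0.76). The same 9 had a median of -0.14 with all libraries, 3 of them above 0.

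**Figure D4:**
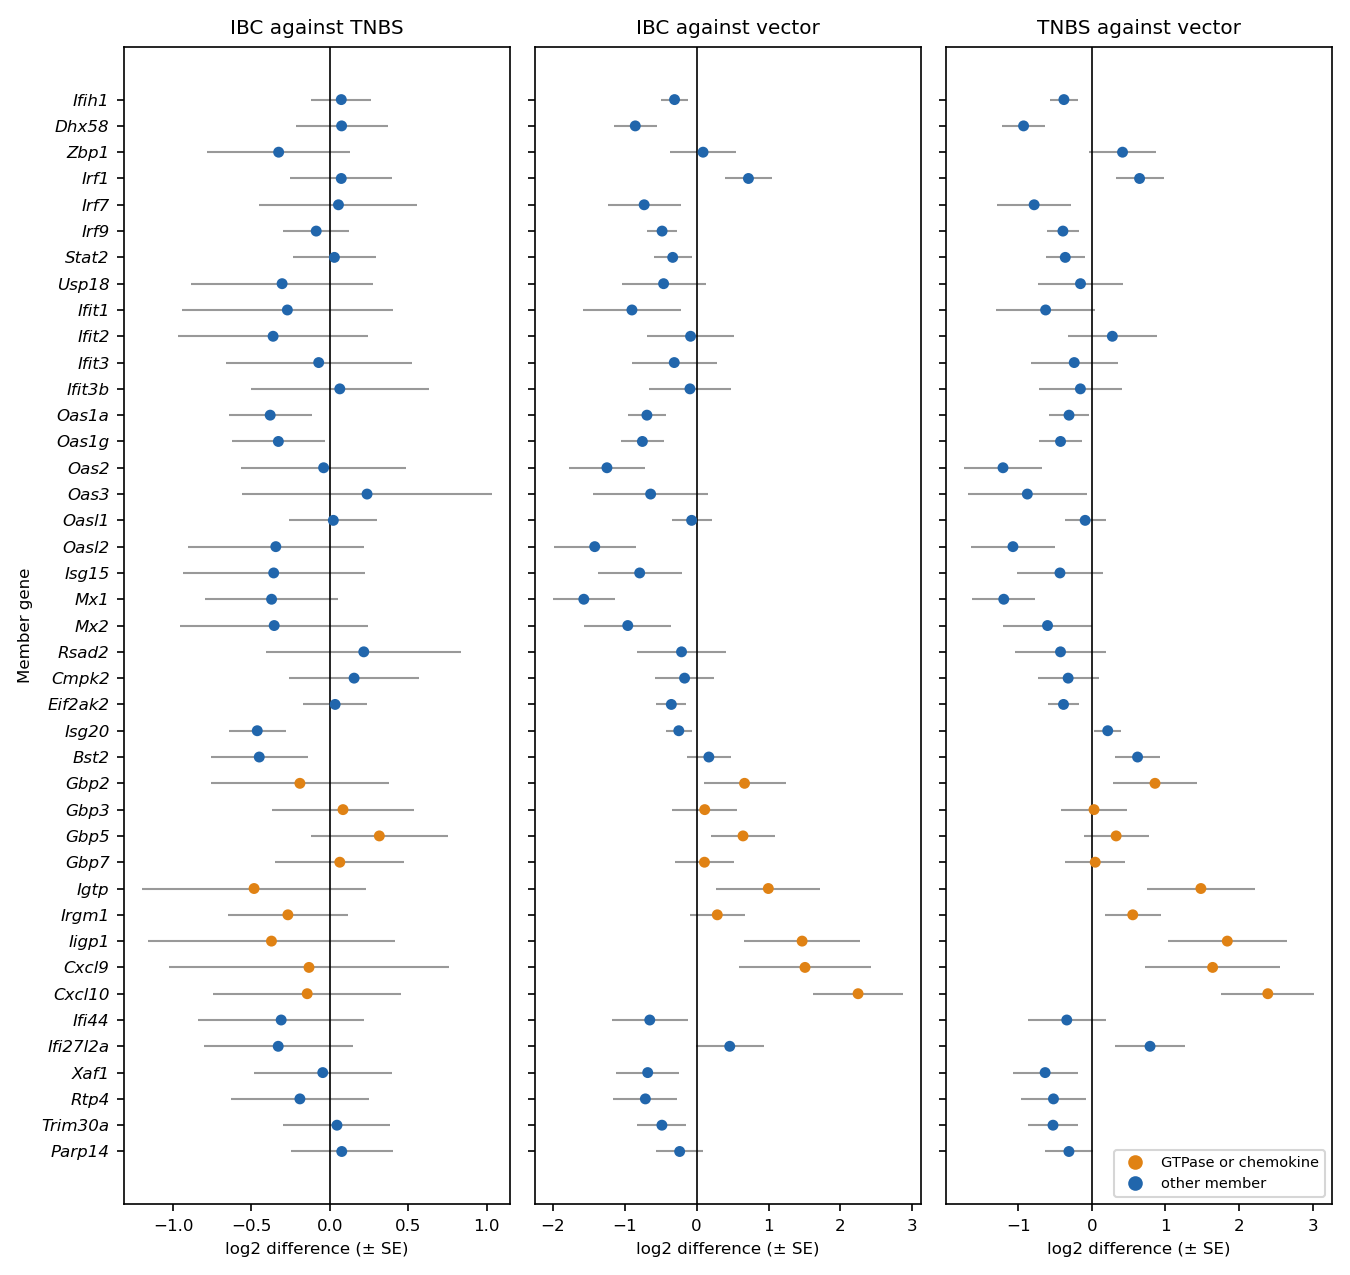
Log2 difference (point) and standard error (bar) of each member for IBC minus TNBS, IBC minus vector and TNBS minus vector in the fit of all 18 libraries; the horizontal scale differs between panels. Guanylate-binding and immunity-related GTPases and the chemokines (orange) are above 0 in all 9 cases in IBC minus vector and TNBS minus vector. This count is 3 of 9 for TNBS minus vector without TNBS 3.

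The Hoxb13-low and Hoxb13-high libraries were then compared, with the group as a term in the fit. Here 12 of 41 members passed edgeR's test, all 12 higher in Hoxb13-low libraries, against 15.6% of all genes called and 8.2% called higher. Of the 41, 37 were above 0, with a median log2 difference of 0.81 against -0.01 over all genes. The 12 were Irf1, Irf7 and Usp18 of the factors and feedback genes, Ifit2, Ifit3, Oas3, Mx2, Cmpk2 and Bst2 of the effectors, and the GTPases Igtp, Irgm1 and Iigp1. Irf7 had the smallest p, with 74.8 to 321 CPM in Hoxb13-low libraries (median 179) and 31.2 to 166 CPM in Hoxb13-high libraries (median 58.5), a log2 difference of 1.40 ± 0.27 with an edgeR adjusted p of 0.00179. Irf1 had 136 to 382 CPM in Hoxb13-low libraries (median 171) and 74.9 to 177 CPM in Hoxb13-high libraries (median 97.5), a log2 difference of 0.89 ± 0.18. The ranges of both genes overlapped between the sets, and vector 1 and vector 6 were the Hoxb13-high libraries with the highest Irf7 levels.

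Ifit2, an RNA-binding antiviral protein, had 7.35 to 74.7 CPM in Hoxb13-low libraries (median 19.6) and 5.05 to 15.9 CPM in Hoxb13-high libraries (median 9.17), a log2 difference of 1.57 ± 0.38 with an edgeR adjusted p of 0.00810. Oas3 had 2.46 to 28.8 CPM in Hoxb13-low libraries (median 22.6) and 0.705 to 17.0 CPM in Hoxb13-high libraries (median 4.37), a log2 difference of 1.78 ± 0.54. TNBS 2 was the lowest Hoxb13-low library for both. Iigp1 had 5.46 to 155 CPM in Hoxb13-low libraries (median 26.9) and 3.57 to 37.6 CPM in Hoxb13-high libraries (median 6.97), a log2 difference of 1.82 ± 0.54. Mx1 had 7.82 ± 5.00 CPM in Hoxb13-low (SD, n = 6) and 8.08 ± 7.54 CPM in Hoxb13-high libraries (SD, n = 12), a log2 difference of -0.04 ± 0.37. Its paralogue Mx2 had a log2 difference of 1.27 ± 0.41. Without TNBS 3 none of the calls of Ifit2, Oas3, Iigp1 and Mx2 was made. The log2 differences were then 0.84 for Ifit2 (edgeR adjusted p of 0.0573), 1.51 for Oas3 (0.128), 1.04 for Iigp1 (0.216) and 0.80 for Mx2 (0.248).

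The count rested in large part on single libraries. Without TNBS 3 edgeR called 3 members, against 2782 of 21177 genes, namely Irf1 (0.65 ± 0.15) and Irf7 (1.26 ± 0.30) higher and Trim30a, a TRIM protein that restrains inflammatory signalling, lower (-0.78 ± 0.24), and the median log2 difference of the 41 was 0.35. Without IBC 5 it called 7 members and 2428 of 21170 genes, without vector 4 it called 8 members and 3427 of 21161 genes, and without TNBS 2 it called 17 members and 2486 of 21183 genes. DESeq2 called 15 members and 4419 of 35217 genes, and a fit with no group term called 10 members and 2967 of 20855 genes. The difference of TNBS minus vector was also tested for a dependence on the Hoxb13 set. By edgeR 0 members and 0 of all genes (0%) had an adjusted p under 0.05 for this interaction. At an unadjusted p under 0.05 there were 0 members, against 4.56% of all genes, and DESeq2 called 0 members and 14 genes. Each group holds only 2 Hoxb13-low libraries, so the lack of a call does not show that the sets were alike.

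Markers of several cell types differed between the sets as well. All 6 B cell markers were called lower in Hoxb13-low libraries, with sums of 3.05 to 43.8 CPM in Hoxb13-low and 17.8 to 154 CPM in Hoxb13-high libraries. Of the 8 monocyte and macrophage markers 5 were called lower, of the 6 smooth muscle markers 3 were called higher, and of the 8 epithelial markers 2 (Car1 and Krt20) were called higher. Gzma and Nkg7, 2 of the 12 T and NK cell markers, were called higher: Gzma had 2.53 ± 1.13 CPM in Hoxb13-low (SD, n = 6) and 0.671 ± 0.520 CPM in Hoxb13-high libraries (SD, n = 12), a log2 difference of 1.97 ± 0.32. Of the 12, 8 were above 0 and 4 below. At an unadjusted p under 0.05, 4 were higher and 1 (Cd4) was lower, against 3166 and 3007 of all 20855 genes tested. T and NK cell markers summed to 12.8 to 31.8 CPM in Hoxb13-low and 8.87 to 31.3 CPM in Hoxb13-high libraries. Without TNBS 3 the same counts were 6 of 6 B cell, 5 of 8 monocyte and macrophage, 2 of 6 smooth muscle, 2 of 8 epithelial and 2 of 12 T and NK cell markers. The part of these cells in the members' differences was not tested.

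Around the members, the other genes of the pathway were read from fixed lists. Of 12 interferon ligand genes sought, 4 (Ifna2, Ifna4, Ifnz and Ifng) were in the table and 0 had enough counts for the test. Ifng had 2 to 20 counts in IBC libraries, 0 to 58 counts in TNBS libraries and 0 to 4 counts in vector libraries. The count of 58 was in TNBS 3 and that of 20 in IBC 5; 5 of the 6 vector libraries had 0, as did TNBS 4 and TNBS 5. Low counts in the table fall more often on 4 (19961 gene and library pairs) than on 3 (9977) or 5 (6358), so a fragment may be worth more than 1 count and small counts hold fewer fragments than they show.

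All 6 interferon receptor genes were tested, and edgeR called 0 of them in any comparison, with 1 receptor gene each at an unadjusted p under 0.05 in TNBS against vector and in IBC against vector (higher in both). Ifnar2, the chain of the type I receptor that binds USP18, had 22.1 ± 5.49 CPM in IBC, 20.8 ± 6.69 CPM in TNBS and 15.8 ± 2.36 CPM in vector libraries (SD, n = 6 each). Of 9 JAK-STAT genes, edgeR called 3 lower and 0 higher in Hoxb13-low against Hoxb13-high libraries, where 15.6% of all genes were called. Among the 3 were the kinases Tyk2 (log2 difference -0.46 ± 0.12) and Jak1 (-0.46 ± 0.14), which transmit the type I signal. At an unadjusted p under 0.05, 3 of the 9 were higher and 3 lower, against 3166 and 3007 of all 20855 genes tested. Without TNBS 3 the 3 called lower were Tyk2, Jak1 and Ptpn6, with 0 called higher.

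A further list of 37 interferon-stimulated genes outside the set was tested. None was called by edgeR between the groups of the study. At an unadjusted p under 0.05, 4 were higher and 4 lower for TNBS minus vector, against 10.4% and 7.32% of all genes. For IBC minus vector 4 were higher and 0 lower, against 4.9% and 3.63% of all genes. For IBC minus TNBS there were 0, against 1.71% of all genes higher and 2.22% lower. Ifitm1, a membrane protein that blocks viral entry, had 21.5 ± 5.10 CPM in IBC, 36.8 ± 37.9 CPM in TNBS and 8.04 ± 1.33 CPM in vector libraries, with edgeR adjusted p of 0.314 for IBC against vector and 0.0902 for TNBS against vector. Between the Hoxb13 sets 12 of the 37 were called, all 12 higher in Hoxb13-low libraries, where 15.6% of all genes were called and 8.2% called higher. Ido1, the tryptophan-degrading enzyme induced by interferon gamma, had 34.9 ± 43.2 CPM in Hoxb13-low (SD, n = 6) and 2.94 ± 3.38 CPM in Hoxb13-high libraries (SD, n = 12), a log2 difference of 4.34 ± 0.72, and Cxcl11, a ligand of CXCR3, had 7.87 ± 9.19 CPM in Hoxb13-low and 0.867 ± 0.871 CPM in Hoxb13-high libraries, a log2 difference of 3.14 ± 0.54. Without TNBS 3 the call was made for 8 of the 37, 7 higher and 1 lower, against 2782 of 21177 genes, with log2 differences of 3.57 ± 0.75 for Ido1 and 2.31 ± 0.46 for Cxcl11.

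Last, members were compared with each other across libraries, within each Hoxb13 set, for pairs chosen after their values had been seen (10 relations were computed and adjusted together, of which 8 are given). In the 12 Hoxb13-high libraries Isg15 followed Irf7 on the log2 CPM scale, with Pearson's r of 0.978 (permutation p of 2e-05, adjusted p of 0.0002) and Spearman's rho of 0.895 (permutation p of 0.00028, adjusted p of 0.0028). Without vector 1 and vector 6, the libraries farthest from the median of Irf7, r was 0.918. No relation of Gbp2 to Isg15 was detected in the same 12 libraries, with r of 0.194 (permutation p of 0.547, adjusted p of 0.600), rho of 0.119 (permutation p of 0.717, adjusted p of 0.717) and r of 0.207 without vector 1 and vector 6. Gbp2 did follow Irf1 there, with r of 0.789 (permutation p of 0.00374, adjusted p of 0.0187) and rho of 0.692 (permutation p of 0.0156, adjusted p of 0.0556), and r was 0.698 without IBC 1 and IBC 3.

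In the 6 Hoxb13-low libraries, which include TNBS 3, Gbp2 and Isg15 had r of 0.740 (exact permutation p of 0.0222, adjusted p of 0.0444) and rho of 0.886 (exact permutation p of 0.0333, adjusted p of 0.0780), with r of 0.567 without TNBS 2 and TNBS 3. The r of Isg15 with Irf7 was 0.789 there (exact permutation p of 0.131, adjusted p of 0.163), with rho of 0.314 (exact permutation p of 0.564, adjusted p of 0.627) and r of 0.601 without TNBS 2 and vector 3. That of Gbp2 with Irf1 was 0.887 (exact permutation p of 0.0417, adjusted p of 0.0694) with rho of 0.714 (exact permutation p of 0.136, adjusted p of 0.194), and it rested on TNBS 3 and IBC 5, since r was 0.122 without them. Mx1 with Mx2 had r of 0.168 in the Hoxb13-high libraries (permutation p of 0.600, adjusted p of 0.600; rho of 0.238, adjusted p of 0.572; r of 0.542 without vector 1 and vector 2). In the Hoxb13-low libraries the r of that pair was 0.729 (exact permutation p of 0.0889, adjusted p of 0.127), with rho of 0.771 (exact permutation p of 0.103, adjusted p of 0.171) and r of 0.980 without TNBS 2 and TNBS 3. Whether the relation of Gbp2 to Isg15 differs between the sets was not tested. Libraries of a set share the study's groups, so these values describe the libraries and are not free of group differences.

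**Figure D5:**
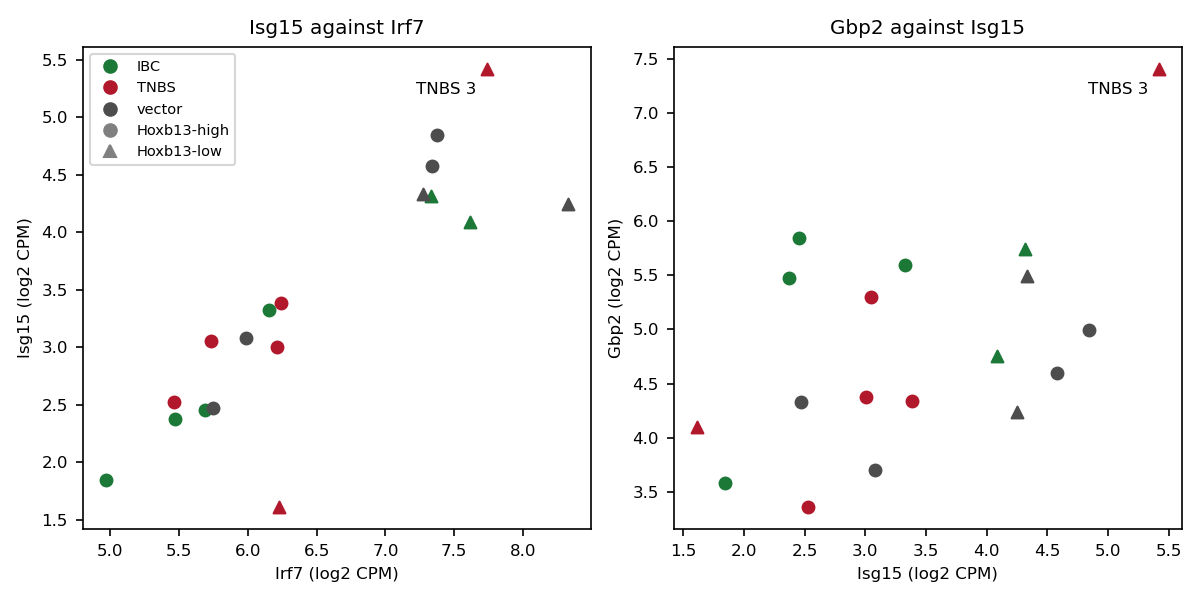
Log2 CPM of Isg15 against Irf7 (left) and of Gbp2 against Isg15 (right), 1 point per library, coloured by group, with triangles for Hoxb13-low libraries. Among Hoxb13-high libraries (circles) the first pair has r of 0.978 and the second r of 0.194.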

How the data were processed

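RNA from mouse colon was sequenced after selection of polyadenylated RNA on oligo(dT) beads, per the labels' protocols, and cutadapt 1.9 is named in the submitters' processing notes. Which aligner, counting program, annotation and build were used is not given in the sources used here. In the deposited table there is, per the file headers, a count for every gene and library, and the counts were used as deposited. It also gives FPKM values, which the authors scaled by transcript length and library total; these were used to compare levels between genes.

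From the counts, filterByExpr (edgeR 4.0.16) kept 20855 of 35405 genes, and TMM scaled the totals. A model with 1 mean for each group was fitted to the 18 libraries and tested by edgeR's quasi-likelihood test, two-sided, with Benjamini-Hochberg adjustment over all genes tested and a threshold of 0.05. CPM is the count per 1e6 of the scaled total, and the standard error is the log2 difference over the root of the F statistic. The Hoxb13 sets were separated at 10 CPM and compared in a fit that keeps the group. Differences of mean log2 CPM within a Hoxb13 set are plain differences of group means (prior count of 2), not edgeR estimates. They set 4 libraries against 4 in the Hoxb13-high set and 2 against 2 in the Hoxb13-low set. Alternatives were DESeq2 1.42.0, no filter, limma 3.58.1 on log2(FPKM + 0.1) and log2(FPKM + 1), counts divided by 4, only 2 groups, the replicate number as a block, a term for the Hoxb13 set, only the 12 Hoxb13-high libraries and each library left out. R 4.3.3, Python 3.11.15 and scipy 1.17.1 were used, and the gene tests were tested on simulated data. There DESeq2 was allowed a larger share of false calls than edgeR and limma. No limit on the share of recovered changes was set for limma. No library was a duplicate of another.

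The members, gene lists and tests were chosen with earlier results of these data known. The rule for named genes gave levels by group for 12 fixed members and for the 3 members with the smallest p in each comparison; in the other lists, receptors, ligands and up to 3 genes with the smallest p could be named. Other genes named were chosen after their values were seen. Results of 1 further gene are not reported here. The total count of each library limits the precision of its values, and no upper limit is given for a count of 0 since the counts per fragment are not known.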

Additional observations from a re-analysis of the deposited data

Results flagged for a closer look

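Within each group of 6 libraries, a member's highest or lowest library was marked where its gap to the nearest other library, divided by the group's range on the log2 CPM scale, passed 0.625 (Dixon's 95% value for 6 libraries). This held for 11 of 123 combinations of member and group, and chance marks about 5% of them. In 7 of the 11 the library was TNBS 3, the highest of its group. The gap ratio there was 0.659 for Zbp1, a sensor of Z-form nucleic acids (101 CPM in TNBS 3), 0.658 for Irf7 (213 CPM), 0.808 for Usp18 (21.9 CPM), 0.701 for Ifit2 (74.7 CPM), 0.783 for Ifit3 (17.3 CPM), 0.670 for Cmpk2 (28.8 CPM) and 0.688 for Irgm1 (225 CPM). In the vector group, vector 4 was highest for Igtp (ratio 0.746, 47.8 CPM) and Iigp1 (ratio 0.682, 35.7 CPM), and vector 2 was lowest for Mx2 (ratio 0.641, 0.582 CPM). IBC 4 was lowest in its group for Gbp3 (ratio 0.854, 5.63 CPM). The 41 members move together across libraries, so these marks are not independent of each other. On the untransformed CPM scale 35 of 123 combinations passed, 26 of them for TNBS 3.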

How the results depend on the processing

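DESeq2 called 1 member for TNBS against vector (Cxcl10, adjusted p of 0.00429) and 2 for IBC against vector (Mx1 at 0.0316 and Cxcl10 at 0.0191), where edgeR called 0; over all genes it called 554 and 197, against 4 and 0. In Hoxb13-low against Hoxb13-high libraries, leaving out 1 library gave 3 (without TNBS 3) to 17 calls (without TNBS 2), against 12. No other alternative that was run called a member between the groups of the study. Leaving out 1 library moved the TNBS minus vector log2 difference of Usp18 between -1.18 and 0.0430, of Gbp2 between -0.246 and 1.10 and of Igtp between -0.0942 and 1.92, so that their signs turned; for Gbp2 and Igtp this was without TNBS 3, and for Usp18 without TNBS 2, TNBS 5 or vector 4. Of the values of single members, 630 kept their direction and side of the threshold, 28 fell below it, 3 passed it and 5 reversed. With the replicate number as a block 0 members were called in each comparison of the groups; only 7 of 18 same-numbered pairs of libraries correlated above 0.1 (median -0.0208), so libraries were treated as unpaired. A term for the Hoxb13 set gave 142 called genes for TNBS against vector, against 4, and none of them a member; without TNBS 6 there were 323. Depth was lowest for Rsad2, Cxcl9, Ifi44 and Cxcl10, with as few as 20, 30, 34 and 36 counts in a library.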
